A study of Homo sapiens with 12 samples.

Results

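Heat shock protein genes were followed on 12 Affymetrix arrays of MM.1S, a glucocorticoid-responsive cell line from human multiple myeloma, with 3 arrays in each of 4 groups after 24 h. FPD cells received 1 nM filanesib, which blocks the mitotic kinesin KIF11, together with 500 nM pomalidomide, which directs the cereblon ubiquitin ligase to new substrates, and 10 nM dexamethasone, a synthetic glucocorticoid. PD cells received 500 nM pomalidomide with 10 nM dexamethasone. F cells received 1 nM filanesib according to their title and 1 nM filanesib with 10 nM dexamethasone according to their treatment label, and control cells received vehicle. Members were taken as the protein-coding genes whose platform symbol begins with HSP followed by A, B, D, E, H or a digit, with DNAJA, DNAJB or DNAJC and a digit, or with CCT2 to CCT8, leaving out 7 genes of the endoplasmic reticulum. The rule gave 17 of the 14884 genes tested. All 17 are heat shock protein genes of the HSP70, HSP110, mitochondrial HSP60 and small heat shock protein families, or, in the case of HSPBAP1, a binding partner. Only rows with exactly 1 gene symbol in the platform annotation were used. None of these rows named a protein-coding DNAJ gene, a CCT subunit, a cytosolic HSP90 gene, HSPA8 or HSPE1, so these genes were not analysed here. Of the 77 genes in RefSeq that fit the rule, 17 had such a row.

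Chaperones keep proteins folded or refold them after damage. HSP70 proteins bind exposed hydrophobic stretches of a client in cycles driven by ATP, J-domain proteins deliver clients, and HSP110 proteins exchange the bound nucleotide so that the client is released. In mitochondria a resident HSP70 pulls in imported chains and the HSP60 barrel folds them, while small heat shock proteins hold unfolded proteins without using ATP. The transcription factor HSF1 drives many of these genes by binding heat shock elements, which are inverted repeats of GAA. Plasma cells and myeloma cells make large amounts of secreted protein and are known to depend on protein quality control.

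The deposited values are on the log2 scale of RMA, on which a difference of 1 is a 2-fold change. The 12 array medians ranged from 4.23 to 4.27, and the correlation within groups was r = 0.988 to 0.992 over 53617 rows. A gene was called where limma gave a Benjamini-Hochberg adjusted p under 0.05 over all 14884 genes in a fit to all 12 arrays, and "fell" and "rose" are used only of called genes. Nothing in the labels ties the arrays to separate cultures, and p-values therefore reflect array-to-array spread alone, possibly of technical origin. The number of arrays limits the precision. The 6 measured plasma cell markers averaged between 7.38 (CD38, in PD) and 11.44 (IRF4, in control) in the groups, whereas the 5 measured myeloid markers lay at 2.84 to 4.64. Of the 3 measured T cell markers, CD2 lay at 3.94 to 4.23 and CD8A, the highest, at 5.83 to 5.95. Of the 3 measured stromal and epithelial markers, EPCAM lay at 4.46 to 4.61 and KRT8 at 5.66 to 5.93. The third, VIM, which blood cells also express, lay at 8.14 to 8.24. The glucocorticoid-induced gene DDIT4 averaged 10.61 in FPD, 10.45 in PD, 5.97 in F and 5.99 in control, so DDIT4 lay at the control level in F although the treatment label names dexamethasone. Comparisons with F are given for the arrays as titled. Of the plasma cell markers, IRF4 averaged 10.09 in FPD and 10.21 in PD, against 11.44 in control, and SLAMF7 averaged 10.11 in FPD and 10.17 in PD, against 10.65 in control, and both fell in FPD and PD. Their part in the changes below was not tested.

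In PD, 6 of the 17 fell and none rose, against 8.63% of all genes lower and 6.84% higher, and in FPD 5 fell and none rose, against 5.89% lower and 7.26% higher. All 3 HSP110 genes and both mitochondrial chaperone genes were among those that fell in each comparison. These comparisons share the control arrays. HSPA1A and HSPA1B enter all counts of members as separate genes, although their signals cannot be separated with certainty. The measured inducible HSP70 genes and the measured small heat shock protein genes (HSPB1, HSPB3 and HSPB8) were not called against control. No member was called in F, where 0.00672% of genes were called higher and 0% lower. The median log2 difference of the members was -0.22 in PD (all genes -0.0027), -0.18 in FPD (all genes -0.016) and 0.097 in F (all genes -0.0051). An unadjusted p under 0.05 was reached by 8 members in PD, 7 in FPD and none in F (limma), against 26.5%, 24.5% and 6.01% of all genes. The members that reached it all have a mean of 6 or more over the 12 arrays. Of all genes with such a mean, 44.5% reached it in PD and 40.7% in FPD. The arrays lay wholly below control in 8 members in PD and in 8 in FPD, against 15.8% and 15.5% of all genes (27.9% and 23.7% of those with a mean of 6 or more over the 12 arrays, as all 8 have), and wholly above control in none, against 13.2% and 14.4%. In these bulk samples less RNA per cell and fewer cells with the RNA cannot be told apart.

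**Figure D1:**
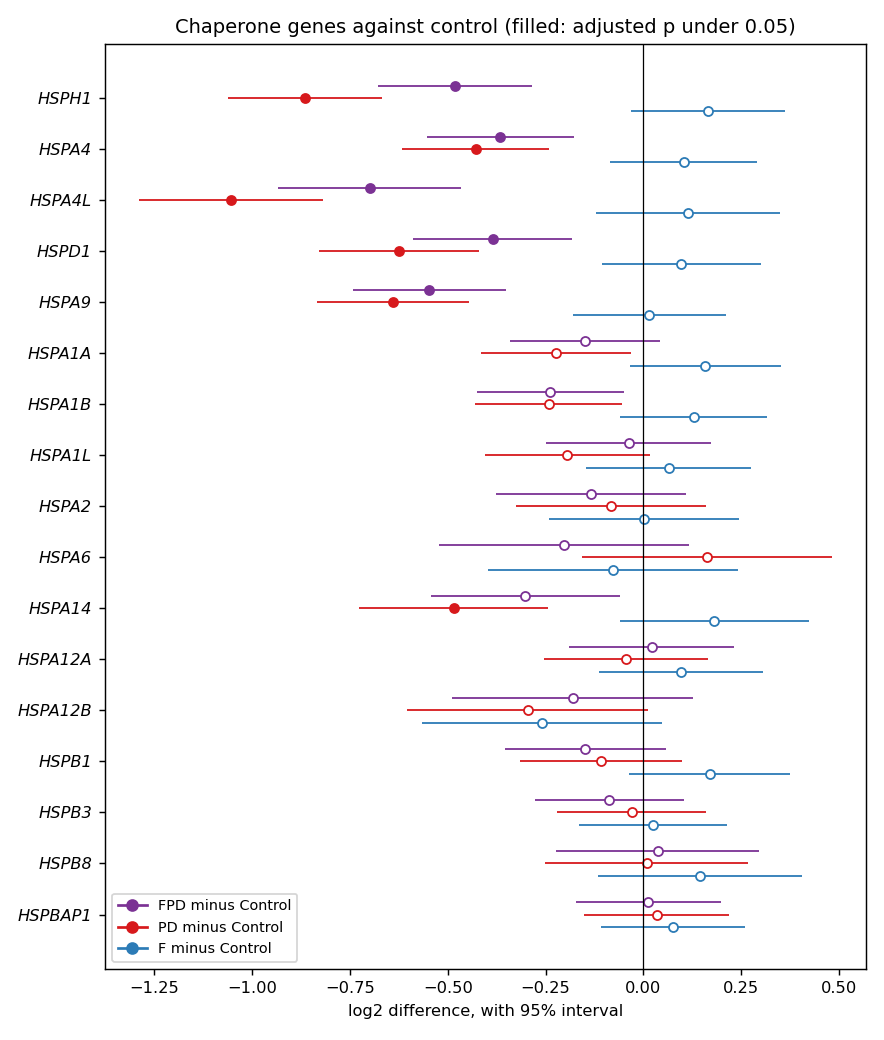
Log2 difference from control of each of the 17 chaperone genes in FPD, PD and F, with the 95% interval of the limma fit. Filled points have an adjusted p under 0.05. The 3 HSP110 genes and the 2 mitochondrial genes lie left of 0 in FPD and PD, and HSPA14 is filled in PD alone.

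All 3 HSP110 genes fell in FPD and PD, and HSPA4L and HSPH1 had the lowest PD differences of all members. HSPA4L encodes a stress-inducible HSP110 protein that is abundant in testis (transcript cluster 16970536). Its arrays read 8.21, 8.39 and 8.19 in PD, against 9.16, 9.48 and 9.31 in control. Every PD array lay below every control array, and HSPA4L fell 2.08-fold (log2 difference -1.05, SE 0.11, limma adjusted p = 8.32e-06). In FPD it read 8.57, 8.57 and 8.70, which lay between the PD and control arrays without overlapping either (FPD against control -0.70, SE 0.11, limma adjusted p = 0.000412). HSPH1 encodes HSP105, an exchange factor for HSP70 that also prevents aggregation (transcript cluster 16777896). It read 9.21, 9.25 and 9.12 in PD, against 10.01, 10.08 and 10.10 in control, a fall of 1.82-fold with no overlap (log2 difference -0.86, SE 0.093, limma adjusted p = 1.12e-05). The FPD arrays of HSPH1 read 9.66, 9.45 and 9.63, again between the PD and control arrays (FPD against control -0.48, SE 0.093, limma adjusted p = 0.00214). HSPA4, the third HSP110 gene (transcript cluster 16989146), read 8.86, 8.81 and 8.81 in FPD and 8.85, 8.74 and 8.71 in PD, against 9.21, 9.27 and 9.11 in control. Both treated groups lay below control and overlapped each other, and HSPA4 fell in each (FPD -0.37, limma adjusted p = 0.0105, and PD -0.43, limma adjusted p = 0.00296).

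**Figure D2:**
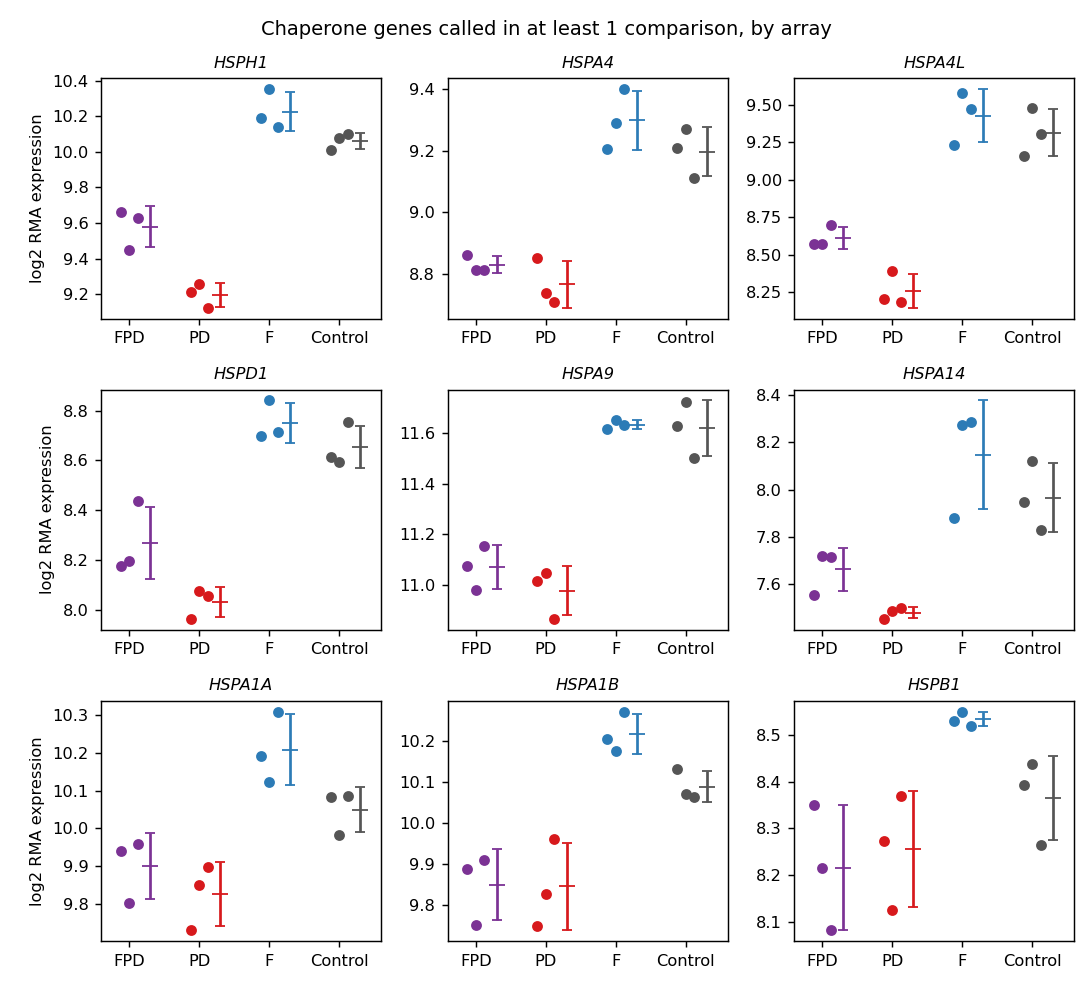
Log2 RMA expression of the 9 chaperone genes called in at least 1 comparison, in the 3 arrays (points) of FPD, PD, F and Control, with the group mean ± SD beside them (vertical axes differ between genes and do not start at 0). In HSPH1 and HSPA4L the FPD arrays lie between the PD and the control arrays, and in HSPB1 the 3 F arrays sit at 8.52 to 8.55.

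Both mitochondrial chaperone genes fell in FPD and PD. HSPA9 encodes mortalin, the HSP70 of the mitochondrial matrix, which drives protein import and helps to build iron-sulphur clusters (transcript cluster 17000485). It read 11.08, 10.98 and 11.15 in FPD and 11.02, 11.05 and 10.87 in PD, against 11.63, 11.72 and 11.50 in control. Neither treated group overlapped control, and HSPA9 fell 1.46-fold in FPD (log2 difference -0.55, SE 0.092, limma adjusted p = 0.000707) and 1.56-fold in PD (-0.64, SE 0.092, limma adjusted p = 0.000153). HSPD1 encodes HSP60, the barrel-shaped chaperonin of the matrix (transcript cluster 16906962), and read 8.18, 8.19 and 8.44 in FPD and 7.96, 8.07 and 8.05 in PD, against 8.61, 8.60 and 8.75 in control. It fell 1.54-fold in PD (-0.62, SE 0.10, limma adjusted p = 0.000279) and 1.31-fold in FPD (-0.39, SE 0.10, limma adjusted p = 0.0127). The FPD array that stood highest was replicate 3, and HSPD1 kept no call in FPD when control replicate 3 (limma adjusted p = 0.0545), FPD replicate 1 (0.064) or FPD replicate 2 (0.0582) was left out.

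The mitochondrial quality control genes listed beside them were measured for 10 of 14 genes. In PD 3 of these fell and none rose, and in FPD 4 fell and none rose (median log2 difference -0.16 in PD and -0.14 in FPD). Of all genes 8.63% fell in PD and 5.89% in FPD, and of those with a mean of 6 or more over the 12 arrays 17.7% and 11.6%. TRAP1, the HSP90 of mitochondria, averaged 9.68 ± 0.12 in FPD and 9.70 ± 0.035 in PD, against 10.34 ± 0.052 in control (SD, n = 3 each; log2 difference -0.66, limma adjusted p = 0.000167 in FPD, and -0.64, limma adjusted p = 0.000184 in PD). CLPB, a disaggregase of the intermembrane space, also fell in both (FPD -0.45, PD -0.51), as did the inner membrane protease subunit gene AFG3L2 (FPD -0.37, PD -0.49). The protease gene HTRA2 fell in FPD (-0.37, limma adjusted p = 0.0135) and was at -0.23 in PD (limma adjusted p = 0.125). FPD calls were lost without FPD replicate 2 for AFG3L2 (limma adjusted p = 0.0621) and HTRA2 (0.0599), and without control replicate 2 for HTRA2 (0.0584). Not called in either comparison were CLPX, YME1L1, SPG7, PITRM1, PMPCB and PMPCA.

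Among the 6 cytosolic HSP70 genes, HSPA14 fell in PD and the others were not called against control. HSPA14 encodes an HSP70 of the ribosome-associated complex that meets nascent chains (transcript cluster 16702656). It read 7.45, 7.49 and 7.50 in PD, against 7.95, 8.12 and 7.83 in control, and fell 1.40-fold (log2 difference -0.49, SE 0.11, limma adjusted p = 0.00752). In FPD it read 7.56, 7.72 and 7.72, below all control arrays, but the test was not passed (-0.30, limma adjusted p = 0.101, 95% interval -0.54 to -0.061).

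HSPA1A and HSPA1B encode the classical stress-inducible HSP70 and are nearly identical, so their signals cannot be separated with certainty. HSPA1A read 9.94, 9.80 and 9.96 in FPD and 9.73, 9.85 and 9.90 in PD, against 10.08, 9.98 and 10.08 in control (transcript cluster 17026318). HSPA1B read 9.89, 9.75 and 9.91 in FPD and 9.75, 9.83 and 9.96 in PD, against 10.13, 10.07 and 10.06 in control (transcript cluster 17028007). All treated arrays of both genes lay below all control arrays. The log2 differences were -0.15 (FPD) and -0.22 (PD) for HSPA1A (limma adjusted p = 0.354 and 0.118), and -0.24 (FPD) and -0.24 (PD) for HSPA1B (limma adjusted p = 0.0955 and 0.0805), and none was called. Each gene had 5 rows on the platform, of which 3 distinct ones for HSPA1A gave -0.24 to -0.22 and 5 for HSPA1B gave -0.32 to -0.24 in PD. With the adjustment over all rows, the HSPA1B row of transcript cluster 17006881 passed in PD (-0.32, limma adjusted p = 0.0397). The other HSPA1B rows did not pass there, including the row used here (limma adjusted p = 0.129). HSPA1B passed in PD when its rows were averaged (-0.28, limma adjusted p = 0.0363), among genes above the median mean (0.0418), with arrays centred on the median (0.0488) and with a trended robust variance (0.0342). In FPD it passed with the trended robust variance (limma adjusted p = 0.0427).

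HSPA1L and HSPA2, both HSP70 genes best known from testis, and HSPA6, an HSP70 gene that is almost silent without stress, lay nearer to the array medians. HSPA1L averaged 5.54 ± 0.06 in FPD and 5.39 ± 0.18 in PD, against 5.58 ± 0.09 in control (SD, n = 3 each). HSPA2 averaged 4.71 ± 0.23 in FPD and 4.76 ± 0.08 in PD, against 4.84 ± 0.09 in control. HSPA6 averaged 4.34 ± 0.29 in FPD and 4.71 ± 0.33 in PD, against 4.54 ± 0.07 in control, and its probes can share signal with the related pseudogene HSPA7. The distant HSP70 relatives HSPA12A and HSPA12B, the second best known from endothelial cells, were not called either. HSPA12A averaged 5.43 ± 0.05 in FPD and 5.36 ± 0.05 in PD, against 5.41 ± 0.18 in control, and its 2 rows differed in sign in PD (-0.044 and 0.16). HSPA12B averaged 5.15 ± 0.23 in FPD and 5.04 ± 0.33 in PD, against 5.33 ± 0.02 in control. The 7 members with a mean under 6 over the 12 arrays, a split made after the values were seen, were HSPA1L, HSPA2, HSPA6, HSPA12A, HSPA12B, HSPB3 and HSPB8. None of the 7 was called in FPD or PD, where their log2 differences ran from -0.20 to 0.036 and from -0.30 (HSPA12B) to 0.16 (HSPA6). HSPA12B was called in PD without PD replicate 2 (-0.46, limma adjusted p = 0.0414). No detection call was used, so whether these 7 lay above background was not tested. Of the 10 members with a mean of 6 or more, 6 fell in PD and 5 in FPD, against 17.7% and 11.6% of the 6083 genes with such a mean.

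**Figure D3:**
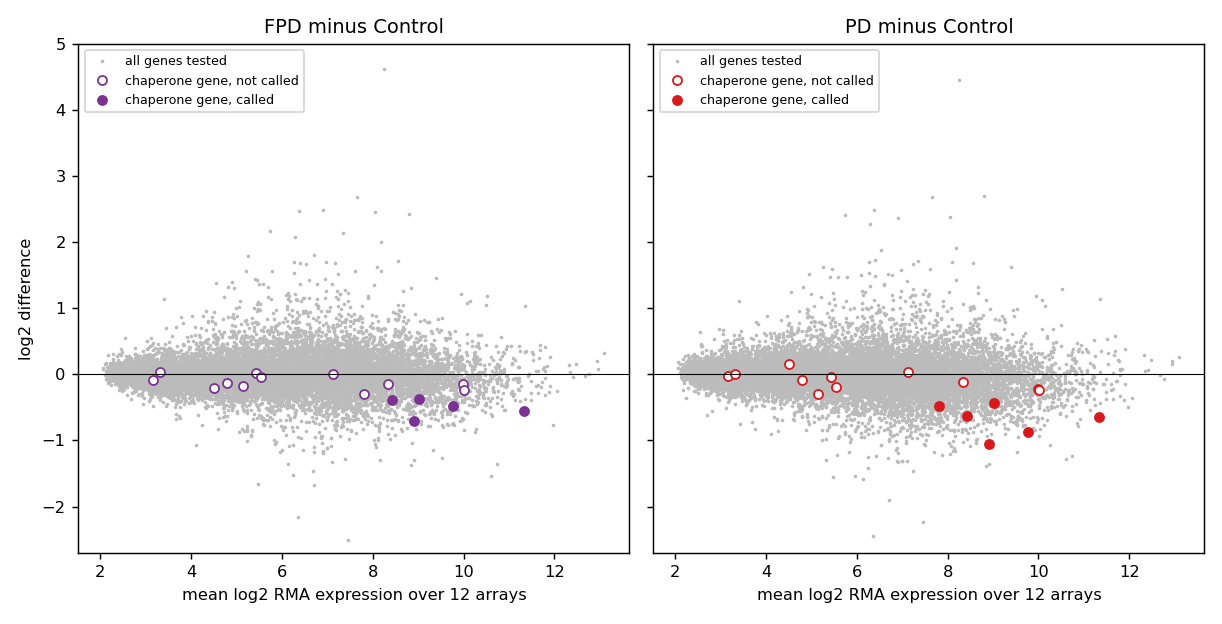
Log2 difference from control in FPD (left) and PD (right) against the mean log2 RMA expression over the 12 arrays, for the 14884 genes tested (grey) and the 17 chaperone genes (circles, filled where the adjusted p was under 0.05). All filled circles lie below 0 and at means above 7, while the 7 members with means under 6 stay within 0.30 of 0.

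The measured small heat shock protein genes and their partner were not called against control. HSPB1 encodes HSP27, which binds unfolded proteins and actin (transcript cluster 17047504). It read 8.35, 8.22 and 8.08 in FPD and 8.27, 8.12 and 8.37 in PD, against 8.39, 8.44 and 8.26 in control, with overlap in both comparisons (log2 difference -0.15, 95% interval -0.35 to 0.058 in FPD, and -0.11, -0.32 to 0.10 in PD). HSPB8, which works with BAG3 in the autophagy of misfolded proteins, averaged 3.30 ± 0.11 in FPD and 3.27 ± 0.16 in PD, against 3.26 ± 0.22 in control (SD, n = 3 each). HSPB3, a muscle protein, averaged 3.10 ± 0.04 in FPD and 3.16 ± 0.08 in PD, against 3.19 ± 0.09 in control. HSPBAP1, which encodes a protein that binds HSPB1, averaged 7.11 ± 0.10 in FPD and 7.13 ± 0.05 in PD, against 7.10 ± 0.04 in control. The FPD and PD means of these 3 genes lay within 0.1 of control.

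Promoter windows from 250 bases before to 50 bases after annotated start sites (RefSeq, GRCh38.p14) were available for 15 of the 17 members, with 19 windows in all because some genes have several starts. They were searched for 2 inverted GAA units (GAANNTTC or TTCNNGAA, each its own reverse complement) and for a longer form of 3 units in alternating orientation, which is GAANNTTC followed by NNGAA or the reverse complement of that run. Both strands were covered, and the longer form contains the shorter. The longer form occurred in 2 of the 19 windows, those of HSPD1 and HSPA6, against 0.49% of 35116 windows searched. The shorter form occurred in 10 of the 19 windows, against 13.5%. The windows of HSPA1A and HSPA1L overlap, so they share 1 match. Windows of 6 genes are shown because the first 4 belong to genes that fell in both PD and FPD against control. The last 2 belong to the inducible pair that was not called against control. Bases in capitals belong to a 2-unit or 3-unit match.
HSPH1 (chr13:31162339-31162638, strand -): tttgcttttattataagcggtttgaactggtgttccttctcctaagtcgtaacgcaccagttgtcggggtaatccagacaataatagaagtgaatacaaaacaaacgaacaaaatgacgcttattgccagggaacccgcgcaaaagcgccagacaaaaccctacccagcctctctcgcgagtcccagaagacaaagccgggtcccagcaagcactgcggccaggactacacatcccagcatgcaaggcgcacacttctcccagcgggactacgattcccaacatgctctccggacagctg
HSPA4L (chr4:127782072-127782371, strand +): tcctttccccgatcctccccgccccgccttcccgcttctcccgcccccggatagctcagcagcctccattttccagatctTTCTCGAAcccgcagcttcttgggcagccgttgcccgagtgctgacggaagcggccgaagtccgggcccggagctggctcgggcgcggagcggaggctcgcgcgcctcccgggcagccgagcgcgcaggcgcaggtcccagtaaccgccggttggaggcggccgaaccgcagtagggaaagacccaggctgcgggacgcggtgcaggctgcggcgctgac
HSPD1 (chr2:197499791-197500090, strand -): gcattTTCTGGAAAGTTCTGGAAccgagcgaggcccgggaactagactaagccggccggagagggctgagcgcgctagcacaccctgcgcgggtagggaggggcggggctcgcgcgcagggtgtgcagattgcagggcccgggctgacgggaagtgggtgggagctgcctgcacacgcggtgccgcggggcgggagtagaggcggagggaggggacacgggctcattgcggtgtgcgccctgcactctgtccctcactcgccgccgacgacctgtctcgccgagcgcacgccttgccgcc
HSPA9 (chr5:138575352-138575651, strand -): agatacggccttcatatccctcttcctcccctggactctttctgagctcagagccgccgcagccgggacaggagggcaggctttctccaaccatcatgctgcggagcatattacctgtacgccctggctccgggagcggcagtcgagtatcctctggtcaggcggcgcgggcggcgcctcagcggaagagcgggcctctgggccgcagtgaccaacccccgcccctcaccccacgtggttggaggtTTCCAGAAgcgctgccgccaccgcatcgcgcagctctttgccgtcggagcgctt
HSPA1A (chr6:31815293-31815592, strand +): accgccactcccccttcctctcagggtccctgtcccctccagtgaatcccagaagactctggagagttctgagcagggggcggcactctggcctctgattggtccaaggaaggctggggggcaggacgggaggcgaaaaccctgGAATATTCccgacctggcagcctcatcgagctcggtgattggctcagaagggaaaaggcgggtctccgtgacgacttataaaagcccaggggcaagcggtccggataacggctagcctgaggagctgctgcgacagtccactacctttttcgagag
HSPA1B (chr6:31827488-31827787, strand +): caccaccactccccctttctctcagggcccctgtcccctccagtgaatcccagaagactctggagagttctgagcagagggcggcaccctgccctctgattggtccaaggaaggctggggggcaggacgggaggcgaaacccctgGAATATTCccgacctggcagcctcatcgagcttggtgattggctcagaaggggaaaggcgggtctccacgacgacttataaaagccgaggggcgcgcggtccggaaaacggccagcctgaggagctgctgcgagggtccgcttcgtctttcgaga
The window of HSPH1, the gene with the second lowest PD difference, held no match, as did that of HSPA4. HSPA4L had a 2-unit match in the window shown and none in its other 2 windows. HSPD1 had overlapping matches at the upstream end of the window shown, which add up to 4 units, and none in its other window. HSPA1A and HSPA1B were 92% identical over an alignment of their windows (277 identical positions, 22 mismatches and 2 gap positions), and both held the same 2-unit match. Matches occurred both in members that fell against control and in members that were not called against control.

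F against control had no called member. In F, 15 of the 17 members had a positive log2 difference (15 with quantile normalization repeated and 15 with arrays centred on the median), against 48.3% of all genes, with a range from -0.26 for HSPA12B to 0.18 for HSPA14, and no member had an unadjusted p under 0.05 (limma). Arrays of F lay wholly above those of control in 4 members, HSPH1, HSPA1A, HSPA1B and HSPB1, and wholly below in 1, HSPA12B, against 4.84% and 5.15% of all genes. HSPA1A and HSPA1B are counted separately here, although they may share signal. HSPB1 read 8.53, 8.55 and 8.52 in F, against 8.39, 8.44 and 8.26 in control (log2 difference 0.17, 95% interval -0.037 to 0.38, limma adjusted p = 0.874). HSPH1 read 10.19, 10.35 and 10.14 in F, against 10.01, 10.08 and 10.10 in control (log2 difference 0.16, 95% interval -0.033 to 0.36). HSPA1A read 10.19, 10.12 and 10.31 in F and HSPA1B 10.21, 10.18 and 10.27 (log2 differences 0.16 and 0.13). HSPA9 differed least among the members that fell in PD, with 11.62, 11.65 and 11.63 in F, against 11.63, 11.72 and 11.50 in control (0.01, and -0.043 without control replicate 3).

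What filanesib added to pomalidomide and dexamethasone was read from FPD against PD. No member was called, and 0.0336% of all genes were called higher and 0% lower. HSPH1 was 0.38 higher on the log2 scale in FPD than in PD (95% interval 0.19 to 0.58, limma adjusted p = 0.177). HSPA4L had a difference of 0.35 (0.12 to 0.59, limma adjusted p = 0.352) and HSPD1 one of 0.24 (0.035 to 0.44, limma adjusted p = 0.504). In these 3 genes and in HSPA14 (0.18) all FPD arrays lay above all PD arrays, against 8.1% of all genes with FPD above and 6.35% with FPD below. All 4 have a mean of 6 or more, and of the 6083 such genes 13.8% lay wholly above and 4.36% wholly below in FPD, with 65.9% positive. The others that fell in PD overlapped, with 0.09 for HSPA9 (95% interval -0.10 to 0.29) and 0.06 for HSPA4 (-0.12 to 0.25). An unadjusted p under 0.05 was reached by 4 members, namely HSPH1, HSPA4L and HSPD1, each higher in FPD, and HSPA6, lower in FPD at -0.37 (limma), against 8.62% of all genes. The departure from additivity sets the FPD and PD difference against the F and control difference and assumes that F holds filanesib alone. It was not called in any member and reached no unadjusted p under 0.05 among them (limma; range -0.29 for HSPA6 to 0.37 for HSPA12B). For HSPH1 it was 0.22 (95% interval -0.061 to 0.50).

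**Figure D4:**
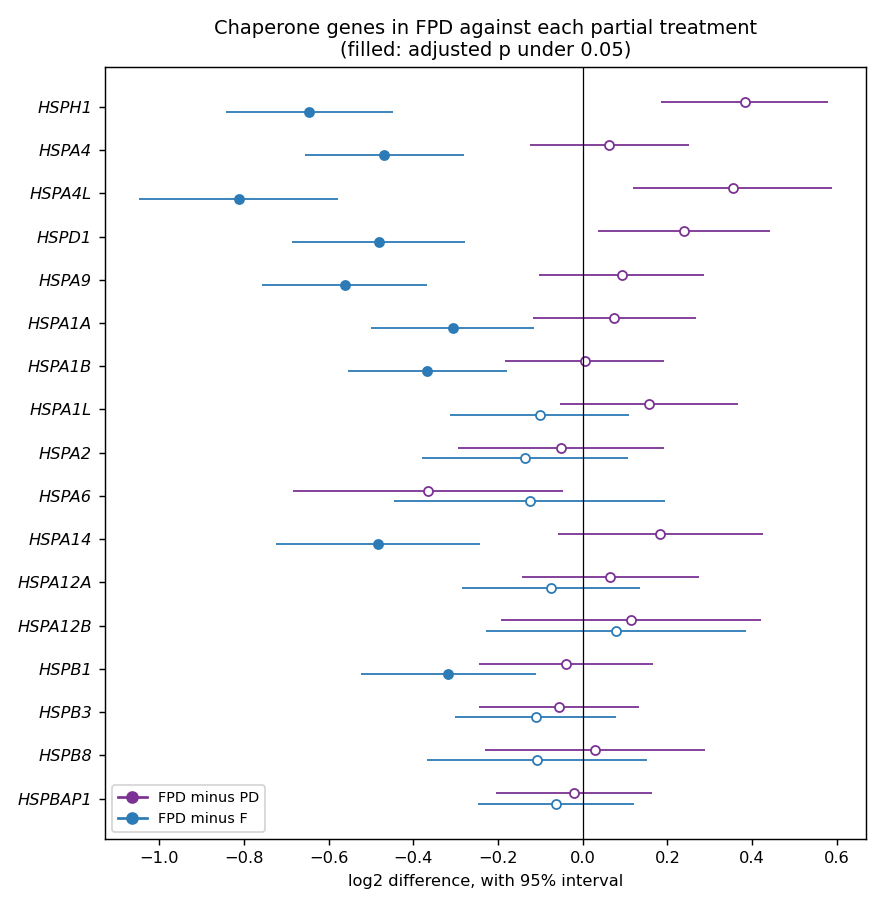
Log2 difference of each chaperone gene in FPD from PD and in FPD from F, with the 95% interval of the limma fit. Filled points have an adjusted p under 0.05. None is filled for FPD minus PD, and 9 are filled for FPD minus F, all below 0.

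FPD against F gave the largest number of called members. Of the 17, 9 fell and none rose, against 6.64% of all genes lower and 7.5% higher (median log2 difference of the members -0.31, of all genes -0.0075). All 9 have a mean of 6 or more over the 12 arrays, and of the 6083 genes with such a mean 808 fell and 782 rose. The 5 genes that fell in both PD and FPD fell here as well, by differences from -0.81 (HSPA4L) and -0.65 (HSPH1) to -0.47 (HSPA4). HSPA14 fell too, with 7.56, 7.72 and 7.72 in FPD against 7.88, 8.27 and 8.29 in F (-0.48, limma adjusted p = 0.00859). HSPA1B, HSPA1A and HSPB1 were called in this comparison alone. HSPA1B fell, with 9.89, 9.75 and 9.91 in FPD against 10.21, 10.18 and 10.27 in F (-0.37, limma adjusted p = 0.01, and 0.0527 without FPD replicate 2). HSPA1A (-0.31, limma adjusted p = 0.0317) and HSPB1 (-0.32, limma adjusted p = 0.0382) fell as well, with calls near the threshold. HSPA1A lost its call without F replicate 1 (0.0579) or 3 (0.13) and without FPD replicate 1 (0.0637), 2 (0.132) or 3 (0.0541). HSPB1 lost it without F replicate 1 (0.0755), 2 (0.109) or 3 (0.0844) and without FPD replicate 2 (0.0928) or 3 (0.173). Since F stood above control in these 3 genes, the difference of FPD from F was larger in each than that of FPD from control, and the comparisons share the FPD arrays.

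The partners of these chaperones were followed as lists. Of 16 measured genes of 25 co-chaperones of HSP70 and HSP90, 6 fell and 1 rose in PD, and 3 fell and 2 rose in FPD (median log2 difference -0.15 in PD and -0.089 in FPD). All genes had 8.63% lower and 6.84% higher in PD, and 5.89% lower and 7.26% higher in FPD, while genes with a mean of 6 or more had 17.7% lower in PD and 11.6% lower in FPD. BAG2, an exchange factor for HSP70 that also restrains the ligase STUB1, fell most (FPD -0.75, limma adjusted p = 0.000277, and PD -0.91, limma adjusted p = 4.29e-05). BAG1, another exchange factor, was at -0.37 in FPD and -0.51 in PD, and TOMM70, the outer membrane receptor that docks HSP70 and HSP90, at -0.37 in FPD and -0.43 in PD, each called in both. The HSP70-HSP90 adaptor gene STIP1 (-0.51), the HSP70-interacting ST13 (-0.51) and the HSP90 partner CHORDC1 (-0.51) fell in PD, and in FPD they were at -0.24, -0.17 and -0.10 without a call. ST13 averaged 3.97 in PD and 4.48 in control, and CHORDC1 4.99 and 5.50 with overlapping arrays. Both genes have a mean under 6, so the share for genes with a mean of 6 or more does not cover them. FKBP5, a glucocorticoid-induced co-chaperone of the glucocorticoid receptor, rose in both (FPD 1.68, PD 1.49), and CDC37L1 rose in FPD (0.37, limma adjusted p = 0.0403). Leaving out 1 array ended the PD call of CHORDC1 in 4 of 6 cases, without control replicate 2 or 3 or PD replicate 1 or 3 (limma adjusted p up to 0.133). The FPD call of CDC37L1 was lost without control replicate 1 or 3 or any FPD replicate (up to 0.144), that of BAG1 without control replicate 2 or 3 or FPD replicate 1 or 3 (up to 0.0841), and that of TOMM70 without control replicate 2 (0.0868) or FPD replicate 3 (0.0757).

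**Figure D5:**
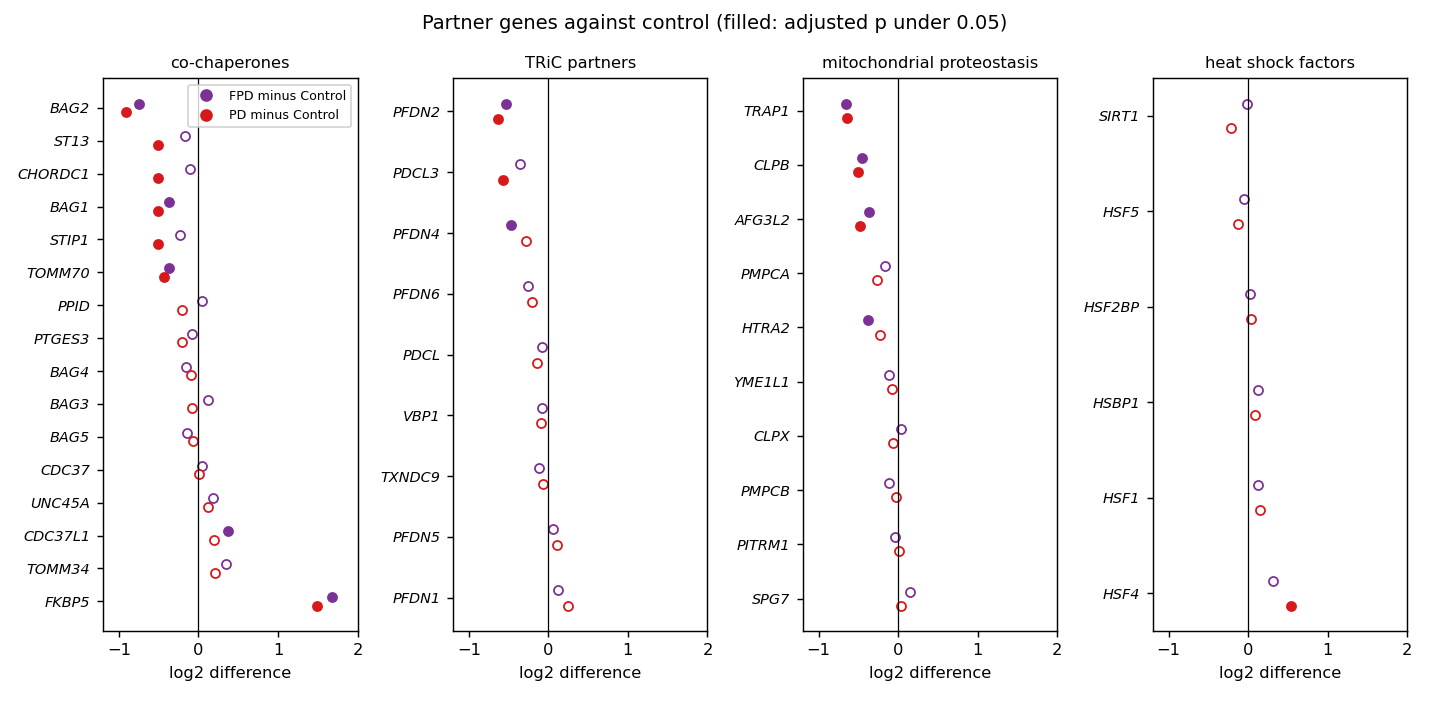
Log2 difference from control in FPD and PD for the measured genes of 4 partner lists, ordered by the PD value (filled where the adjusted p was under 0.05). BAG2, TRAP1 and PFDN2 have the lowest PD values of their lists, and FKBP5 lies far to the right.

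Of 9 measured partners of the cytosolic chaperonin TRiC, out of 10 listed, 2 fell in PD and 2 in FPD, and none rose (median log2 difference -0.14 in PD and -0.12 in FPD). These counts are near the shares called lower among genes with a mean of 6 or more, 17.7% in PD and 11.6% in FPD (all genes 8.63% and 5.89%). PFDN2, a subunit of prefoldin, which hands unfolded actin and tubulin to the chaperonin, fell in both (FPD -0.54, limma adjusted p = 0.00665, and PD -0.63, limma adjusted p = 0.00174). The chaperonin cofactor gene PDCL3 fell in PD (-0.57, limma adjusted p = 0.0194) and the prefoldin subunit gene PFDN4 in FPD (-0.46, limma adjusted p = 0.0284). PDCL3 lost its call without control replicate 2 (0.103) or PD replicate 2 (0.0833) or 3 (0.0881). PFDN4 lost it without any control replicate or FPD replicate 1 or 2 (limma adjusted p from 0.056 to 0.131). The other prefoldin genes PFDN1, PFDN5, PFDN6 and VBP1 were not called in either.

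Of 6 measured genes of 7 heat shock factors and their regulators, 1 rose in PD, none fell, and none was called in FPD (median log2 difference 0.059 in PD and 0.068 in FPD). With 6 genes this is near the background of 6.84% higher and 8.63% lower in PD, and 7.26% and 5.89% in FPD. HSF1, the main activator of chaperone genes, averaged 9.19 ± 0.074 in FPD and 9.20 ± 0.090 in PD, against 9.06 ± 0.034 in control (SD, n = 3 each). Its log2 differences were 0.13 in FPD (95% interval -0.073 to 0.33, limma adjusted p = 0.469) and 0.15 in PD (-0.054 to 0.35, limma adjusted p = 0.367). HSF4, a factor best known from the lens, rose in PD (0.53, limma adjusted p = 0.0114), and the call was absent without control replicate 2 (0.0502) or PD replicate 3 (0.063) and when its rows were averaged (log2 difference 0.33, limma adjusted p = 0.0807). Levels of RNA say nothing here of the activity of HSF1, which is set mainly on the protein.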

How the data were processed

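Expression was measured in MM.1S cells on 12 Affymetrix arrays, 3 in each of the groups FPD, PD, F and control, grouped by their titles. The authors deposited log2 values, for which the submitters' processing notes name Affymetrix Expression Console and RMA without versions. RMA brings all arrays to a common distribution, so a change in total RNA would not show, and it compresses low signals.

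Of 53617 rows, 16098 had 1 gene symbol in the platform annotation. For 779 genes with several rows the row of highest 12-array mean was kept. All 14884 genes were fitted with limma 3.58.1 in R 4.3.3 as group means over the 12 arrays (8 residual degrees of freedom). Tests were two-sided with Benjamini-Hochberg adjustment and a threshold of 0.05. Promoter windows came from RefSeq GRCh38.p14 and were aligned with Biopython 1.88.

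Per-array values are given for members fixed by name and for the 4 highest and 4 lowest called members of each comparison, and other genes come from the called members and 4 partner lists. The members and lists were chosen with earlier results of these data known. Alternatives were a replicate block, an expression filter, other row choices, 2 other scalings, the compared arrays alone, a trended robust variance and leaving out each array.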

Additional observations from a re-analysis of the deposited data

How the results depend on the processing

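None of the counts of called members moved by more than 1.5 times under any of the alternatives run. Leaving out 1 array gave 6 to 7 members lower in PD than in control, 4 to 5 in FPD than in control and 6 to 8 in FPD than in F, against 6, 5 and 9 with all arrays, and 0 in every other count. Of 20 calls of a member in a comparison, 16 held under all alternatives. The exceptions were HSPD1 in FPD against control and HSPA1A, HSPA1B and HSPB1 in FPD against F. HSPA1A also lost its call over all rows of the table (limma adjusted p = 0.0665), in the compared arrays alone (0.0506) and with quantile normalization repeated (0.0746), and HSPB1 over all rows (0.0883) and with quantile normalization repeated (0.0596). Among the partner genes, BAG1 and CDC37L1 in FPD against control and CHORDC1 and PDCL3 in PD against control also lost their calls over all rows of the table, as did PFDN4 in FPD. CDC37L1 also lost its call with arrays centred on the median (limma adjusted p = 0.0522) and with quantile normalization repeated (0.0585), and CHORDC1 in the compared arrays alone (0.0527). Whether the replicate numbers of the labels pair the arrays could not be settled from these values. Deviations of same-numbered arrays from their group means correlated at r = -0.26 to 0.16, 5 of 18 pairs were above 0.1, and 5 of 12 arrays correlated best with their own number. Same-numbered arrays of F correlated at r = 0.018 to 0.16 with control and at 0.083 to 0.12 with FPD. Those of PD correlated at -0.26 to -0.0056 with control. With a replicate block 6 members were lower in PD and 5 in FPD than in control, and 8 in FPD than in F, where HSPB1 was lost (limma adjusted p = 0.0506).

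Directions under the alternatives were followed only for the members called in at least 1 comparison and for HSPA6 and HSPA12B. Among these members, directions that turned belonged to values close to 0 that were not called. For FPD against PD these were HSPA1B, at -0.0015 with quantile normalization repeated and -0.044 to 0.061 without 1 array, HSPB1 (-0.11 to 0.027) and HSPA12B (-0.052 to 0.28). For FPD against F they were HSPA12B (-0.046 to 0.18) and HSPA6 (-0.25 to 0.032), and for F against control HSPA9 (-0.043 to 0.067), each over the arrays left out. With 3 arrays per group and RMA compression of low signals, changes in the 7 members with a mean under 6 could be missed.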
